A study of Mus musculus with 38 samples.

Results

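10 genes of the germ granule and of the piRNA pathway were followed in mouse embryos with hypomorphic Dnmt3b: Ddx4 (Vasa), Mael, Gpat2, Piwil1, Piwil2, Piwil4, Tdrd1, Tdrd9, Mov10l1 and Asz1. They are 10 of the 18300 named genes on the array, and each was measured by 1 probe. Of these probes 9 carried the current symbol in the platform annotation, and the Gpat2 probe was listed there as A530057A03Rik. The genes were chosen from knowledge of the pathway and of their ratios in these same embryos. Their ratios are therefore given as a description, without a test. Values at a bound or missing affected Piwil4 only, which had a value on 34 of 38 arrays, and all 10 genes could be followed in both tissues.

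Dnmt3b is a de novo DNA methyltransferase. The hypomorphs were compared in thymus at 18.5 days post coitum and in embryonic fibroblasts at 12.5 days post coitum, all of them hybrids of 129SvJae and C57BL/6. For thymus, 5 hypomorphic embryos were hybridised on 18 2-colour arrays, and for fibroblasts 5 on 20 arrays, and the competing channel always held pooled wild-type RNA of that tissue (5 samples). An embryo had 4 arrays, 2 with its RNA in Cy5 and 2 with it in Cy3, except thymus embryo 5 with 1 of each. The thymus labels give the genotype m3/m24 except on 3 arrays, and the fibroblast labels give a number in its place. The labels name no other allele, no sex and no transgene, and controls exist as the pools only. All values below are log2 ratios of hypomorph over pool, where 0 means equal signal and 1 a doubling, and they are ratios and not levels. Whether the cells carried the markers that define thymus or fibroblasts therefore could not be checked as levels.

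In germ cells, PIWI proteins bind small RNAs called piRNAs and silence transposons, in the cytoplasm by cutting transcripts and in the nucleus by directing DNA methylation. The machinery gathers in perinuclear granules (nuage) and at the outer surface of mitochondria. Tudor domain proteins hold it together by binding methylated arginines of PIWI proteins. Most of these genes are kept silent in somatic tissues, and DNA methylation of CpG-rich promoters is known to take part in silencing Ddx4, Mael and other germline genes.

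The 3 members with ratios above the pool in every embryo of both tissues were Ddx4, Mael and Gpat2, and their promoters are shown because DNA methylation and the E2F6 repressor are known to act at promoters of germline genes. The sequences run from 250 bases before to 50 bases after the annotated start and come from RefSeq (GRCm38.p6). Capitals mark TCCCGC or its reverse complement GCGGGA, the letters at the core of many E2F sites. The Ddx4 window lies at chr13:112652261-112652560 on the minus strand, the Mael window at chr1:166238695-166238994 on the minus strand, and the Gpat2 window at chr2:127424949-127425248 on the plus strand.
Ddx4: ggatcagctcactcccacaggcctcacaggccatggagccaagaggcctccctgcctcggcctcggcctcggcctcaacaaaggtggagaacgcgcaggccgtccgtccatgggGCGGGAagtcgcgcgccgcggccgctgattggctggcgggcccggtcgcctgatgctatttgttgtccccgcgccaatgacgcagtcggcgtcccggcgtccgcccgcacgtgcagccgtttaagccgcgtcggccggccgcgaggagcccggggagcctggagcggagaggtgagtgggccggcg
Mael: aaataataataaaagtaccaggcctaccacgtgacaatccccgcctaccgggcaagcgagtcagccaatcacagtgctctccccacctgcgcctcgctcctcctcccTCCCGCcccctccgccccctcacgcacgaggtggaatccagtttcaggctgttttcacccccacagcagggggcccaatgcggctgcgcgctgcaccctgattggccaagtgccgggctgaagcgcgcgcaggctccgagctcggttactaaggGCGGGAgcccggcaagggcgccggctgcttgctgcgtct
Gpat2: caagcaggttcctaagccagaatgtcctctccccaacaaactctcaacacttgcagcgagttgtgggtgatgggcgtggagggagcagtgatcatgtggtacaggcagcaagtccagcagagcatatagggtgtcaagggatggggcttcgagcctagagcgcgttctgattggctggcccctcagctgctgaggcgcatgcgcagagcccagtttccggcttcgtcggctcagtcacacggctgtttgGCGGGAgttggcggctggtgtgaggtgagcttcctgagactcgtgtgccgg

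Promoter windows were found for 9 of the 10 members, 12 windows in all, since Piwil4 and Tdrd1 have more than 1 start. TCCCGC was present on either strand in Ddx4, Mael and Gpat2 and in none of the windows of the 6 other matched members. It was present in 20.0% of all 32851 windows of this length. In Ddx4 it began 136 bases before the start and in Gpat2 1 base before it. Mael had it 143 bases before and 11 bases after the start. The longer TTCCCGC, which contains TCCCGC, was found in Ddx4 and in 4.60% of all windows. CCCGCC, which can overlap TCCCGC, was found in 6 of 9 members and in 35.3% of all windows. The palindrome CACGTG, an E-box, was found in 6 of 9 members and in 7.15% of all windows. The number of CpG dinucleotides was 38 in the Ddx4 window, 24 in Mael and 15 in Gpat2, against a median of 7 over all windows with quartiles of 3 and 20. The other members had 20 in Mov10l1, 18 in Piwil1, 17 in Asz1, 10 in Tdrd9, 11 and 0 in the windows of Piwil4, and 20, 25 and 3 in those of Tdrd1. The motifs were searched with the ratios known, and a match shows letters in a window, not a bound site.

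The ratios are taken as hypomorph over pool, sample over reference, a direction that is likely but not stated in the labels. The Y-linked Eif2s3y was at -3.43, 0.72, -0.40, 0.27 and -0.40 in thymus embryos 1 to 5 and at -1.35, -1.996, 1.00, 0.66 and -3.69 in fibroblast embryos 1 to 5. Its decreases were deeper than its increases, as they would be for hypomorph over a pool of both sexes, but the values form no clear pair of sets and do not settle the direction. If the numerator were the pool, every sign here would turn. The Dnmt3b probe was at -0.08 ± 0.15 in thymus and 0.11 ± 0.11 in fibroblasts (SD, n = 5), and since its place in the gene is not given it is no check of the allele. After the dye profile was removed, 7 of 38 arrays had a mean correlation below 0 with the remaining arrays of the same embryo. They were arrays 2 and 4 of fibroblast embryo 1 and array 4 of fibroblast embryo 4, at -0.03, -0.18 and -0.13, arrays 1 and 2 of thymus embryo 1, at -0.04 and -0.01, and both arrays of thymus embryo 5, at -0.07. Values without them are given further on.

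Ddx4 encodes the RNA helicase Vasa, which marks germ cells and is a core part of nuage. In thymus its ratio was 1.20 in embryo 1, 0.82 in embryo 2, 0.66 in embryo 3, 0.74 in embryo 4 and 1.25 in embryo 5. All 5 thymus embryos lay above the pool, with a mean of 0.93 ± 0.27 (SD, n = 5), which is 1.91-fold. In fibroblasts it was 0.94, 1.38, 1.64, 0.60 and 0.60 in embryos 1 to 5. The mean there was 1.03 ± 0.46 (SD, n = 5), which is 2.05-fold, and again all 5 embryos were above the pool. The ranges of the tissues overlapped widely.

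Mael encodes Maelstrom, a nuage protein needed for transposon silencing and spermatogenesis. Its ratio in thymus was 0.86, 0.52, 0.37, 0.49 and 0.65 in embryos 1 to 5, with a mean of 0.58 ± 0.19 (SD, n = 5), or 1.49-fold. In fibroblasts it was 0.24, 0.69, 0.43, 0.08 and 0.36, with a mean of 0.36 ± 0.23 (SD, n = 5), or 1.29-fold. Every embryo lay above its pool, fibroblast embryo 4 by the smallest margin.

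Gpat2 encodes a mitochondrial acyltransferase related to enzymes of glycerolipid synthesis, which in mouse germ cells also binds Piwil2 and takes part in piRNA production. Its thymus ratios were 1.73, 1.19, 1.06, 1.94 and 1.17 in embryos 1 to 5. They were the highest of the 10 members except in embryo 5, where Ddx4 was at 1.25. The thymus mean was 1.42 ± 0.39 (SD, n = 5), or 2.67-fold. In fibroblasts the ratio was 0.72, 1.23, 0.93, 0.38 and 0.46, with a mean of 0.74 ± 0.35 (SD, n = 5), or 1.68-fold. All embryos were above their pools, and the highest 2 thymus embryos, 1 and 4, exceeded every fibroblast embryo.

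**Figure D1:**
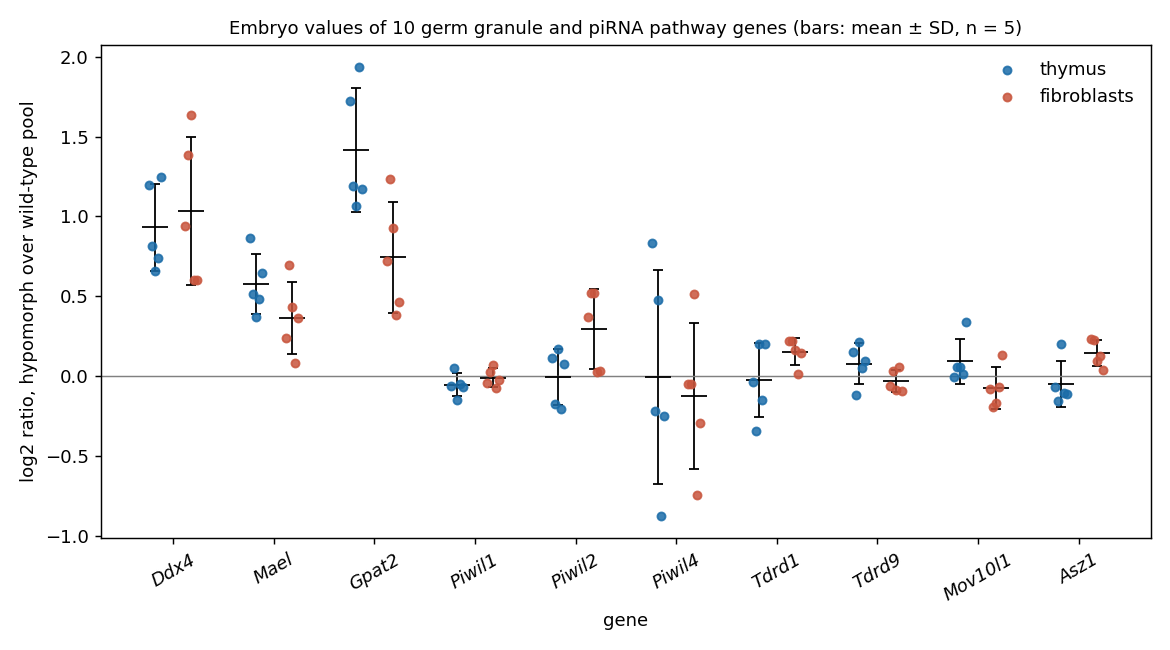
Log2 ratio of hypomorph over wild-type pool (vertical axis) for each of the 10 genes, in thymus and fibroblasts; each point is an embryo (n = 5 per tissue), and the bars give mean and SD. Ddx4, Mael and Gpat2 lie above 0 in all 10 embryos, while most other members scatter around 0 and Piwil4 scatters widest.

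Of the PIWI proteins themselves, Piwil1 (Miwi), which acts in later spermatogenesis, had means of -0.06 ± 0.07 in thymus and -0.01 ± 0.06 in fibroblasts (SD, n = 5 each), with embryos on both sides of the pool. Piwil2 (Mili), which loads primary piRNAs in the cytoplasm, was at 0.11, -0.18, 0.17, -0.21 and 0.08 in thymus embryos 1 to 5, a mean of -0.01 ± 0.17 (SD, n = 5). In fibroblasts Piwil2 was at 0.37, 0.52, 0.52, 0.03 and 0.03, a mean of 0.29 ± 0.25 (SD, n = 5). The 5 fibroblast embryos were all above the pool, embryos 4 and 5 barely so, and without array 4 of embryo 4 that embryo was at -0.04. Piwil4 (Miwi2), the nuclear PIWI protein that directs DNA methylation in mouse fetal germ cells, was at 0.84, -0.22, 0.48, -0.88 and -0.25 in thymus. Its means were -0.01 ± 0.67 in thymus and -0.12 ± 0.46 in fibroblasts (SD, n = 5 each), and its single arrays ranged from -3.70 to 2.51.

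Among the Tudor proteins and helicases, Tdrd1, a nuage scaffold, had a mean of -0.03 ± 0.23 in thymus and 0.15 ± 0.08 in fibroblasts (SD, n = 5 each). Its 5 fibroblast embryos were above the pool, at 0.22, 0.22, 0.16, 0.01 and 0.15, but embryo 4 was at -0.01 without its array 4. Tdrd9, a Tudor domain helicase that works with Piwil4, had means of 0.08 ± 0.13 and -0.03 ± 0.07, and Mov10l1, the helicase that binds piRNA precursors, 0.09 ± 0.14 and -0.08 ± 0.13 in thymus and fibroblasts (SD, n = 5 each). Asz1, a protein of the mitochondrial surface in germ cells, was at -0.05 ± 0.14 in thymus and 0.14 ± 0.08 in fibroblasts (SD, n = 5 each). Its fibroblast embryos were at 0.23, 0.23, 0.10, 0.13 and 0.04, all above the pool. The 7 members outside Ddx4, Mael and Gpat2 thus had mean ratios between -0.12 and 0.29.

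In thymus, 3 of 10 members lay above the pool in all 5 embryos, against 3.53% of the 21949 features measured. In fibroblasts 6 of 10 did, Ddx4, Mael, Gpat2, Piwil2, Tdrd1 and Asz1, against 7.80% of 22025. Without array 4 of fibroblast embryo 4 it was 4 of 10, Piwil2 and Tdrd1 no longer among them, against 7.92% of 21931. In all 10 embryos 3 did, Ddx4, Mael and Gpat2, against 0.320% of the 21852 features measured in both tissues. These members were chosen with these ratios known, so nothing is read from the counts. In whole tissue, fewer cells of a type and less RNA per cell cannot be told apart, and the same holds for more of either.

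The ratios of Ddx4 and Mael differed with the dye orientation. In thymus Ddx4 had a mean over embryos of 0.35 ± 0.35 where the hypomorph was in Cy5 and 1.52 ± 0.22 where it was in Cy3 (SD, n = 5). Over all 18 thymus arrays it ranged from -0.27 to 1.86 with a median of 0.95, and 17 of 18 were above the pool. In fibroblasts it was 0.46 ± 0.78 in Cy5 and 1.60 ± 0.40 in Cy3 (SD, n = 5), and 18 of 20 arrays were above the pool, from -1.97 to 2.15 with a median of 1.20. The dye difference was of the order of the mean itself, and the values above are averages over both orientations. The mean of Gpat2 in thymus was nearly the same in both, at 1.40 ± 0.39 in Cy5 and 1.44 ± 0.45 in Cy3 (SD, n = 5), with 18 of 18 arrays above the pool, between 0.90 and 2.22. In fibroblasts Gpat2 was at 0.57 ± 0.47 in Cy5 and 0.92 ± 0.26 in Cy3 (SD, n = 5), with 19 of 20 arrays above the pool. Mael in thymus was at 0.37 ± 0.22 in Cy5 and 0.78 ± 0.24 in Cy3 (SD, n = 5), with 18 of 18 arrays above the pool, and in fibroblasts at 0.26 ± 0.32 and 0.47 ± 0.14 (SD, n = 5), with 18 of 20. For Piwil1, Piwil4 and Tdrd1 the orientations differed in sign in both tissues, and for Piwil2 and Asz1 in thymus. Piwil1 in thymus was at -0.33 in Cy5 and 0.22 in Cy3, and Tdrd1 in fibroblasts at 0.43 in Cy5 and -0.13 in Cy3. Piwil4 was at 0.22 and -0.24 in thymus and at -0.58 and 0.33 in fibroblasts in Cy5 and Cy3.

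**Figure D2:**
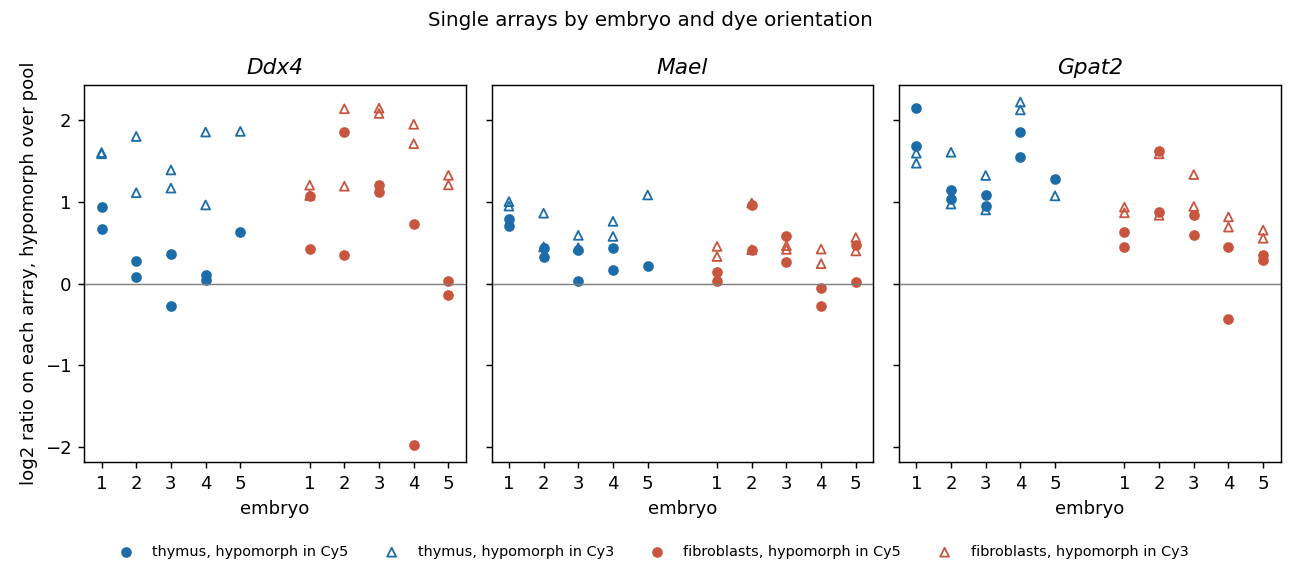
Log2 ratio of hypomorph over pool on each array (vertical axis) by embryo (horizontal axis) for Ddx4, Mael and Gpat2; filled circles have the hypomorph in Cy5 and open triangles in Cy3 (18 thymus arrays in blue, 20 fibroblast arrays in red). In thymus the Gpat2 mean over embryos is nearly the same in both orientations, though Cy5 is higher in embryo 1 and lower in embryo 4. Ddx4 sits lower where the hypomorph was in Cy5.

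The means of the 8 spots next to each of the 3 probes on the array were lower than that of the probe itself. They lay between -0.38 and 0.09 for Ddx4, -0.12 and 0.07 for Mael and -0.53 and 0.08 for Gpat2 in thymus, and between -0.09 and 0.22, -0.26 and 0.21 and -0.09 and 0.54 in fibroblasts. In fibroblasts array 4 of embryo 4 was the lowest of 20 for all 3 genes, at -1.97 for Ddx4, -0.28 for Mael and -0.43 for Gpat2. The other fibroblast arrays below 0 were array 1 of embryo 5 for Ddx4, at -0.145, and array 2 of embryo 4 for Mael, at -0.05. Without array 4 of embryo 4 that embryo was at 1.28 for Ddx4, and the fibroblast mean at 1.17 for Ddx4, 0.37 for Mael and 0.79 for Gpat2. Array 4 of embryo 1 correlated with array 3 of embryo 2 at 0.879 across probes, against 0.793 for the next closest pair of equal orientation, and Ddx4 was 1.20 and 1.19 on them. Without the 3 fibroblast arrays of low correlation the fibroblast means were 1.13 for Ddx4, 0.37 for Mael and 0.80 for Gpat2. Without the 4 thymus arrays, which removes embryo 5, the thymus means were 0.87 ± 0.27 for Ddx4, 0.56 ± 0.22 for Mael and 1.4998 ± 0.44 for Gpat2 (SD, n = 4).

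Fibroblast embryos fell into 2 sets by the prefix of the array title, which the labels do not call a batch. The arrays of embryos 2 and 3 and 1 array of embryo 1 carry AYX or AYY, and those of embryos 4 and 5 and 3 arrays of embryo 1 carry AYT. Means over the AYX and AYY arrays were 1.41 for Ddx4, 0.53 for Mael, 1.01 for Gpat2 and 0.50 for Piwil2, and over the AYT arrays 0.71, 0.22, 0.53 and 0.19. Embryo 1 enters the former by 1 array with the hypomorph in Cy3. The direction was the same in both sets, and the array set and the embryo cannot be told apart. Embryos 2 and 3 were the highest 2 of 5 for Ddx4, Mael, Gpat2, Piwil1 and Piwil2, as they were for 23.8% of all 22025 features. Fibroblast markers, all 10 of them measured, varied among the same embryos, with marker medians of -0.10, 0.11, 0.53, 0.10 and -0.31 in embryos 1 to 5. Of their means 6 of 10 were above the pool, against 49.1% of all features. The collagen-binding proteoglycans Dcn and Lum, chosen after their values were seen, were at 0.38, 1.88, 4.63, 0.49 and -0.37 and at 0.39, 1.15, 2.18, 0.80 and -0.42. Embryos 2 and 3 were the highest 2 for 3 of the 10 markers. For the markers Col1a1 and Thy1 they were the lowest 2. Col1a1 was at -0.52, -1.74, -1.34, -0.52 and 1.34 and Thy1 at -0.23, -0.51, -0.35, -0.28 and 0.09. In thymus the medians of 13 thymocyte markers were -0.23, 0.31, -0.14, 0.14 and -0.21 (embryos 1 to 5). The part of these shifts in the members' ratios was not tested.

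For the difference between tissues, thymus minus fibroblasts was 0.67 ± 0.20 (moderated SE, n = 5 embryos each) for Gpat2, 0.21 ± 0.12 for Mael and -0.10 ± 0.21 for Ddx4. It was -0.30 ± 0.12 for Piwil2 and -0.19 ± 0.08 for Asz1. The SE is the one from limma, which draws each gene's spread towards that of all features. No call is made on these differences, since the ratios were known when the genes were chosen. Over all features 0.412% passed limma's test of the difference at an adjusted p under 0.05 (90 of 21852). The tissues also differ in age and have separate pools.

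**Figure D3:**
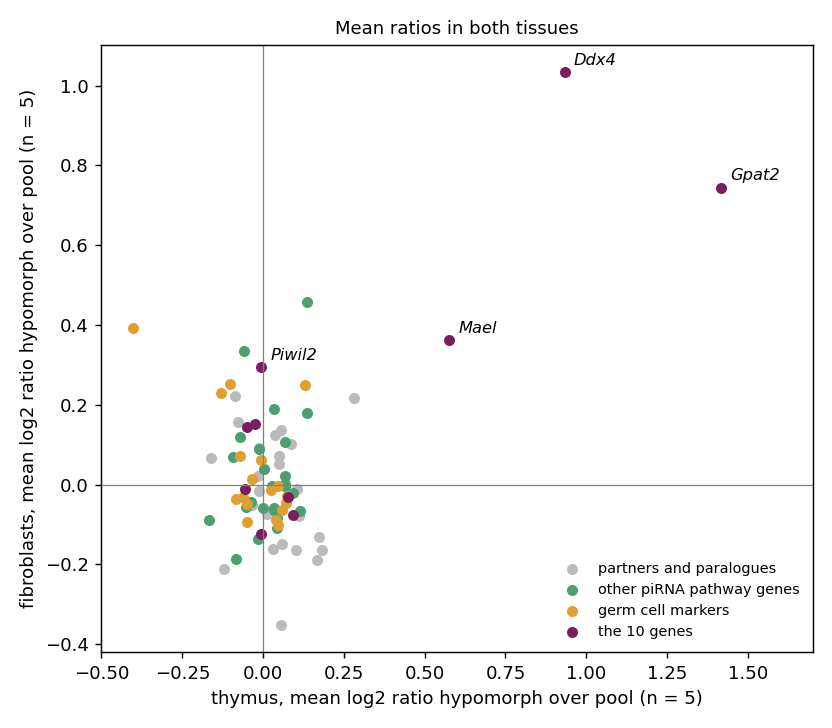
Mean log2 ratio in thymus (horizontal axis) against fibroblasts (vertical axis) for the 10 members (purple), other piRNA pathway genes (green), partners and paralogues (grey) and germ cell markers (orange); each point is the mean of 5 embryos per tissue. Ddx4, Gpat2 and Mael lie to the upper right, and the remaining members have means between -0.12 and 0.29. The green set also holds genes of germline RNA control and meiosis.

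The patterns nearest to those of the 3 genes over the 10 embryo values, by Pearson's r over 18157 genes, were Hk2 (0.916), Pir (0.915) and 4930470G03Rik (0.899) for Ddx4, Adgra3 (0.905), Tex11 (0.891) and Il20 (0.859) for Mael, and Olfr1164 (0.914), Tgds (0.881) and 1700031M16Rik (0.874) for Gpat2. Embryos of a tissue share a pool, and r takes no account of size. Among these nearest genes of each, none was another of the 3.

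Across all features, limma's test against 0 called 0.0228% in thymus (5 of 21949) and 0.00454% in fibroblasts (1 of 22025) at a Benjamini-Hochberg adjusted p under 0.05, and 7.49% and 16.0% at an unadjusted p under 0.05. Each pool stands for 1 control sample, so the spread among wild-type embryos is not in these tests, and the embryos of a tissue share that pool. Of 34 further genes of the piRNA pathway, germline RNA control or meiosis, 25 were measured. None passed the test in either tissue (limma, lowest adjusted p = 0.650 in thymus and 0.153 in fibroblasts). At an unadjusted p under 0.05 it was 1 in thymus, Morc1 as lower, and 3 in fibroblasts, Tex15, Tex19.1 and Exd1 as higher. In thymus 15 of 25 were above the pool with a median of 0.03, against 54.9% and a median of 0.01 over all features. In fibroblasts it was 11 of 25 with a median of -0.00, against 49.1% and a median of -0.00. Those with the largest ratios in thymus were Morc1, which silences transposons in the male germline, at -0.17 ± 0.16, Tex15, needed for piRNA-directed DNA methylation, at 0.14 ± 0.20, Tex19.1, which restrains transposons, at 0.13 ± 0.13, and Henmt1, which methylates piRNA ends, at 0.11 ± 0.19 (SD, n = 5). In fibroblasts Tex15 was at 0.42, 0.87, 0.63, 0.17 and 0.20 in embryos 1 to 5, a mean of 0.46 ± 0.29 (SD, n = 5; limma adjusted p = 0.182). Tsn, the RNA-binding protein translin, was at 0.34 ± 0.38, Exd1, a partner of Tdrd12, at 0.19 ± 0.13 and Tcfl5, a transcription factor of meiosis, at -0.19 ± 0.29 there (SD, n = 5).

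The partners with general roles were 25 of 27 measured, and none passed in either tissue (limma, lowest adjusted p = 0.481 in thymus and 0.195 in fibroblasts; 4 and 7 at an unadjusted p under 0.05, against 7.49% and 16.0% of all features). In thymus D1Pas1, a germline helicase related to Ddx3x, was at 0.28 ± 0.39, Fkbp4 and Hsp90aa1, chaperones, at 0.18 ± 0.15 and 0.17 ± 0.11, and Wdr77, the partner of Prmt5, at 0.17 ± 0.20 (SD, n = 5). In fibroblasts Prmt5, which methylates arginines of PIWI proteins, was at -0.35 ± 0.31, Dgcr8, a microRNA processing factor, at 0.22 ± 0.17, D1Pas1 at 0.22 ± 0.25 and Ago1 at -0.21 ± 0.19 (SD, n = 5).

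Germ cells themselves were looked for by 20 marker genes, 18 of them measured. Whether these genes were confined to germ cells in these tissues was not tested. The median ratio was -0.02 in thymus, with 8 of 18 above the pool against 54.9% of all features, and -0.02 in fibroblasts, with 7 of 18 above it against 49.1%. Single markers ranged from -0.40 to 0.13 in thymus and from -0.10 to 0.39 in fibroblasts. None passed in either tissue (limma, lowest adjusted p = 0.345 in thymus and 0.211 in fibroblasts; 1 and 5 at an unadjusted p under 0.05, against 7.49% and 16.0% of all features). The embryo medians lay between -0.12 and 0.02 in thymus and between -0.01 and 0.07 in fibroblasts. Of markers used to define early germ cells, picked after the values were seen, the means were as follows, with Dppa3 at 0.05 and -0.00, Pou5f1 at -0.06 and -0.03, Nanog at -0.05 and -0.05, Kit at 0.03 and -0.01 and Dazl at 0.06 and -0.06 in thymus and fibroblasts. Among the 3 largest in each tissue were Ifitm1 at -0.40 ± 0.27 and 0.39 ± 0.33 and Sycp3, a protein of the synaptonemal complex, at 0.13 ± 0.23 and 0.25 ± 0.24 in thymus and fibroblasts (SD, n = 5). Ifitm3 was at -0.13 ± 0.13 in thymus and 0.23 ± 0.24 in fibroblasts, and Utf1 at 0.25 ± 0.18 in fibroblasts. In fibroblasts Ifitm1 and Utf1 lay above the pool in all 5 embryos, against 7.80% of all features. Tfap2c, at -0.10, and Nanog lay below it in all 5 fibroblast embryos, and Ifitm1 and Pou5f1 in all 5 thymus embryos. The share of all features below the pool in all 5 was not counted.

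**Figure D4:**
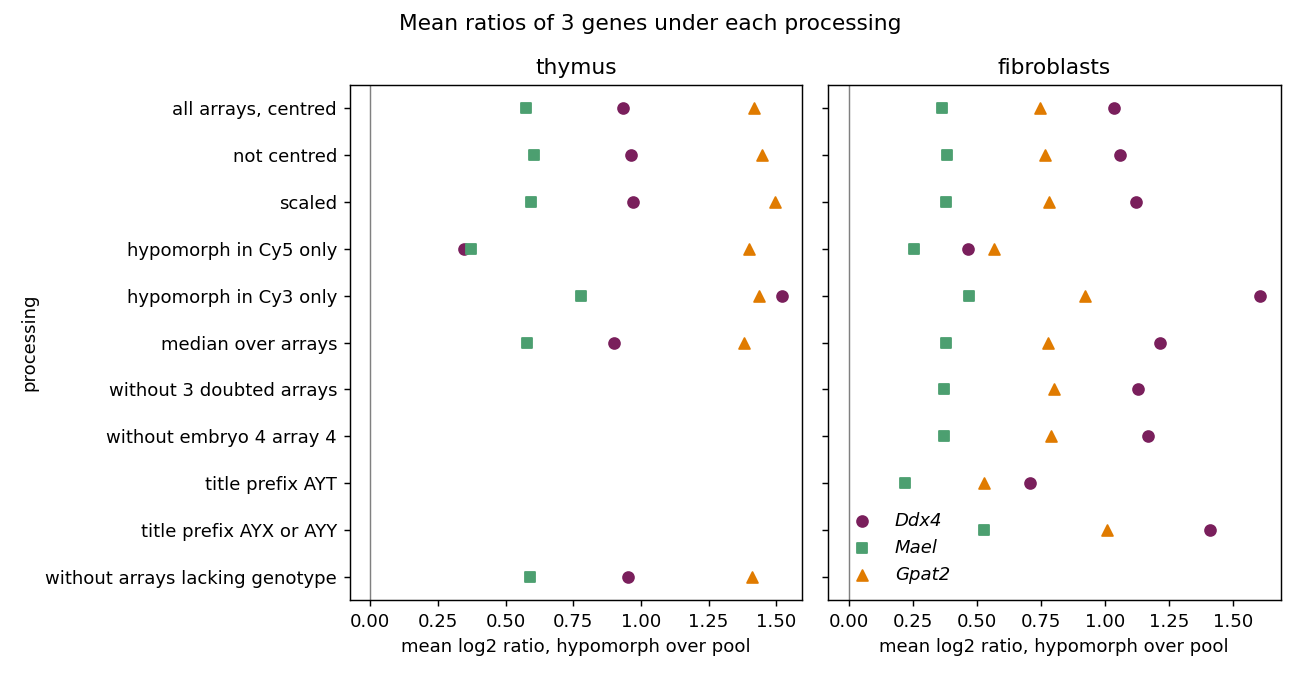
Mean log2 ratio over embryos (horizontal axis) of Ddx4, Mael and Gpat2 in each tissue under the processing used and 10 alternatives (vertical axis); alternatives that concern 1 tissue are empty in the other. All 3 genes lie above 0 in each, and Ddx4 moves most, from 0.35 to 1.52 in thymus between the dye orientations.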

How the data were processed

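The design text, per the labels, describes total RNA that was amplified, coupled to Cy3 or Cy5 and hybridised against a pooled wild-type reference, read on an Agilent scanner. The deposited table holds log2 ratios for 25344 spots on 38 arrays. The sources used here do not give how spots were extracted, corrected or normalized. Scanner intensities were not used, so signal over background is unknown and the number of embryos limits precision. Array medians ran from -0.888 to 1.14, and 868 values stood at a bound of 16.61. On arrays with the hypomorph in Cy5 only the upper bound occurred (445 values), and with it in Cy3 only the lower (423), so the sign had already been turned, which does not settle which RNA is the numerator.

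Bound values were set missing and each array was centred on its median. Probes of a gene were averaged, and an embryo's value is the mean of its Cy5 and Cy3 means, both required. The embryo is the replicate. Ratios were tested against 0 per tissue and between tissues with limma 3.58.1 (lmFit, eBayes) in R 4.3.3, two-sided, with Benjamini-Hochberg adjustment over all features at 0.05. The script was tested on simulated data. Tables were made in Python 3.11.15 with pandas 2.3.3. Of the probes 21111 had 1 symbol and 4233 none. Symbols were updated through RefSeq (GRCm38.p6): 17069 were current, 3974 updated and 68 kept. Members and lists were chosen with earlier results of these data known. Named are all members, the 4 largest absolute means per tissue of each further pathway list with any that passed, the 3 most alike genes of Ddx4, Mael and Gpat2, germ cell markers that passed or were among the 3 largest, and Dnmt3b. Other germ cell markers, Dcn, Lum, Pdgfra, Col1a1 and Thy1 were named after their values were seen. Eif2s3y was used for the direction. Embryo numbers do not pair the tissues, since embryos of different ages carry them and same-numbered embryos correlated between -0.04 and 0.09. The labels do not say that embryos came from separate litters. Alternatives concerned centring, scaling, the dye orientation, bounds, probes, arrays left out and embryos left out. The promoter of Piwil2 is not used here.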

Additional observations from a re-analysis of the deposited data

Results flagged for a closer look

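In 20 groups of 5 embryos (10 members in 2 tissues) an embryo was looked for that lay far from the other 4, a criterion that chance meets in about 1 of 20 groups. Mov10l1 in thymus had embryo 5 at 0.34 on the log2 scale, with the other embryos between -0.00 and 0.06. That embryo has 2 arrays, both of low correlation, at 0.216 in Cy5 and 0.459 in Cy3. Asz1 in thymus had embryo 3 at 0.20, with the others between -0.16 and -0.07. In embryo 3, arrays 1 and 4, with the hypomorph in Cy3, were at 0.248 and 0.695. Arrays 2 and 3, with it in Cy5, were at -0.145 and 0.002. Array 4 was the highest, and the labels of arrays 2 and 4 lack the genotype. Both genes had ratios near 0 otherwise.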

How the results depend on the processing

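The mean ratios of Ddx4, Mael and Gpat2 stayed above the pool in all 102 alternatives, and 96 of them moved the value by less than 1 SD over embryos. The other 6 were single dye orientations. Over all 10 members 324 of 340 alternatives stayed within 1 SD, and 30 turned the sign, none of them in Ddx4, Mael or Gpat2. Many of these outcomes were fixed in advance, so the counts do not measure robustness. Leaving out 1 of 5 embryos cannot move a mean by 1 SD, nor turn its sign where all 5 lie above the pool. Ddx4, Mael and Gpat2 have 1 probe each and a value on all 38 arrays. The alternatives on probes, bounds and missing values therefore left their means nearly unchanged. The counts of features passing limma's test were less stable. In thymus it was 5, and 1 with the values as deposited, 13 with arrays scaled to equal spread, 3 with the median over arrays, 9 with every probe its own feature and 9 without arrays lacking the genotype. In fibroblasts it was 1, and 8 with the values as deposited, 2 with scaling, 7 with the median over arrays, 0 with bound values kept, 7 without the 3 doubted arrays, 83 without array 4 of embryo 4, 0 with values in at least 3 embryos, and 0 where 1 dye orientation sufficed, an alternative added after the data were seen. The array title prefixes gave 0 for AYT (embryos 1, 4 and 5) and 2686 for AYX or AYY (embryos 1, 2 and 3). In the AYX or AYY set embryo 1 is 1 array in Cy3 only, so its dye effect does not cancel. That array correlated at 0.879 with an array of embryo 2, so the set hardly holds 3 separate embryos. The counts of these sets for the difference between tissues carry the same limit. For the difference between tissues it was 90, and 17 as deposited, 141 with the median, 291 without array 4 of embryo 4, 4 for AYT and 3586 for AYX or AYY. With the hypomorph in Cy5 only the counts were 4881 in thymus, 6298 in fibroblasts and 0 for the difference, and in Cy3 only 5244, 8145 and 285, since dye effects then do not cancel. Without the 4 thymus arrays of low correlation, also added after the data were seen, it was 0 in thymus and 1 for the difference, with 4 thymus embryos. Leaving out 1 embryo at a time gave 0 to 4 in thymus, 0 to 38 in fibroblasts and 1 to 374 for the difference. With a replicate block the difference had 1 feature, but the numbers do not pair the samples. Beyond dye, the cause was not tested.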

Other observations

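In fibroblasts, embryos 2 and 3 were the highest 2 of 5 for 9 of 25 further genes measured, against 23.8% of all features. These 25 are genes of the piRNA pathway, germline RNA control or meiosis. Tex15 was at 0.42, 0.87, 0.63, 0.17 and 0.20 in embryos 1 to 5, and Tsn at 0.31, 0.78, 0.64, 0.08 and -0.13. Of genes outside that list, 4 of 25 partners with general roles and 3 of 10 fibroblast markers had the same order. Dgcr8, at 0.27, 0.39, 0.36, 0.03 and 0.07, was among the former, and the latter were Dcn, Lum and Pdgfra. The fibroblast markers Col1a1 and Thy1 were lowest in embryos 2 and 3. These 2 embryos have all their arrays under the AYX or AYY title prefixes.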
